A study of Mus musculus with 67 samples.

Results

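The retina collected at 3d was compared with the retina collected at 6h across all genes, the late against the early point of a time course in photosensitive Abca4-/- Rdh8-/- mice. The rule took the 4 libraries labelled 3d and the 3 labelled 6h, 7 of the 33 RNA libraries of the series (67 samples in all, the others made from genomic DNA and not analysed here). Every animal behind the RNA libraries, the reference group NB (n = 6) and the 1d group (n = 4) included, carries the deletions of Abca4 and Rdh8 on a C57BL/6J background. Thus no RNA library shows a retina with both genes intact. The labels state neither age nor clock time of collection, NB is not spelled out, and what happened at the start of the course is not stated. Each library was made from the pooled eyes of 1 mouse, with stranded mRNA chemistry, and the libraries of a group are thus taken as separate animals. Of 16930 genes in the table, 16926 had at least 1 CPM (reads per 1000000 of the library size) in at least 3 of the 17 retina libraries and were tested.

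ABCA4 moves retinal released from bleached opsin out of the disc membrane and RDH8 reduces it to retinol, so mice without both clear this reactive aldehyde slowly and are used as a model of light damage. In injured retina, photoreceptors and Muller glia, the glia that span all retinal layers, switch on stress genes and cytokines of the interleukin-6 family, whose shared receptor chain gp130 signals through STAT3. Microglia, the resident phagocytes, take up debris and express complement C1q, phagocytic receptors and lysosomal enzymes.

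The labelled tissue matched its markers. Rod genes summed to between 59065 and 69864 CPM at 6h and between 51251 and 58944 CPM at 3d (36 genes). Abca4 averaged 465 ± 9.97 CPM at 6h (SD, n = 3) and 448 ± 9.19 at 3d (n = 4), and Rdh8 43.7 ± 5.75 and 45.9 ± 3.34 CPM. These values check nothing about the deletions, since the table does not say where in a gene the reads fall. Neither gene passed the threshold (limma, adjusted p = 0.696 and 0.704). Reads recovered from the values numbered 22588712 to 32351974 in the 6h libraries and 13291505 to 13823520 in the 3d libraries. All 6h libraries belong to a deeper set together with 2 NB libraries (A1 and A2), and all 3d libraries to a shallower set together with the 1d and the other 4 NB libraries (B1 to B4). Between the NB libraries of the sets 550 genes differed (limma, NB libraries alone). No set holds both groups, so each count is given from a fit of the retina groups and again from a fit with the set as a term, which the NB libraries make possible.

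Genes of AP-1, gp130 and NF-kappaB signalling were lower at 3d than at 6h, and genes of microglia, complement and class I antigen presentation were higher. Late and early retinas differed in 5925 of 16926 genes (35.0%), 2801 higher (16.5%) and 3124 lower at 3d (18.5%), by limma on log2(CPM + 0.5) with an adjusted p below 0.05. At least 2-fold differences were seen for 193 higher and 235 lower genes, together 2.53% of those tested. With the set as a term 2400 genes passed (14.2%), 810 higher (4.79%) and 1590 lower (9.39%). In the same direction in both fits 697 genes were higher (4.12%) and 1476 lower (8.72%). The median log2 difference over all genes was 0.01 (0.01 with the set term). Had the values been scaled to library totals in place of the authors' effective library sizes, this median would be 0.13, and 71.8% of 7289 called genes would be higher in place of 47.3%. Each log2 difference below is 3d minus 6h with its SE. The words "in both fits" count members past the threshold in the same direction with and without the set term.

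**Figure D1:**
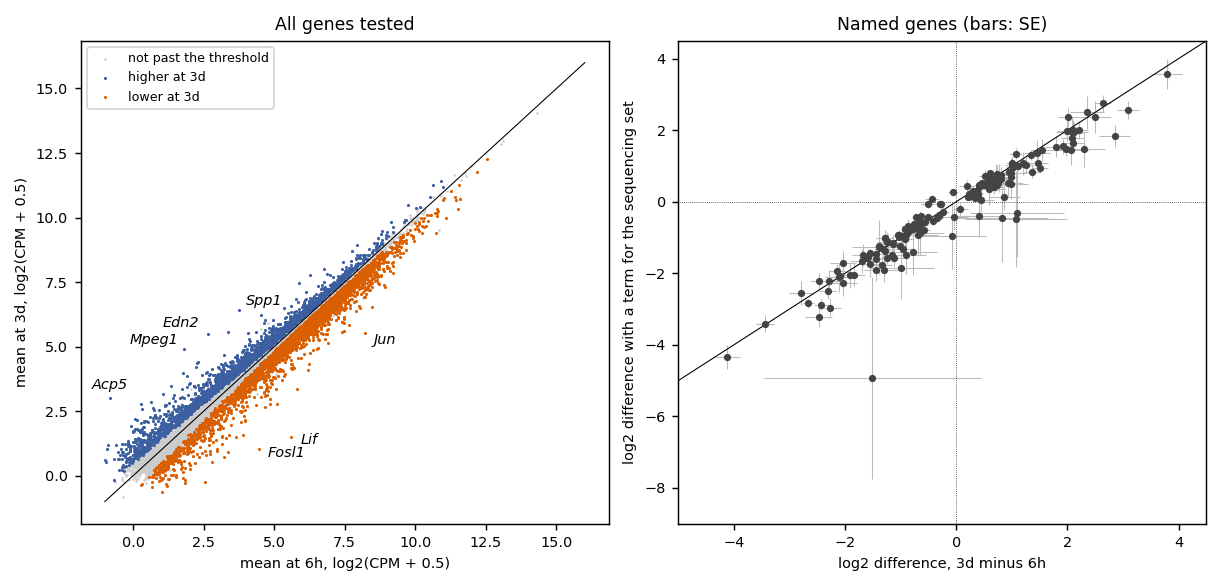
The scatter plots mean log2(CPM + 0.5) at 6h (x) against 3d (y) for the 16926 genes tested, with genes past the threshold in colour. The panel of the 169 named genes plots the log2 difference of 3d minus 6h (x) against the same difference with the set term (y), bars showing SE; most points lie near the line of equality.

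Immediate early and cytokine genes were lower at 3d. Lif, a cytokine of the interleukin-6 family, had 51.7, 51.1 and 41.3 CPM in the 6h libraries and 2.92, 2.72, 1.79 and 1.86 CPM in the 3d libraries. The groups lay far apart (log2 difference -4.12 ± 0.23, adjusted p = 1.66e-10; -4.34 with the set term), and the 3d mean of 2.32 ± 0.579 CPM was still above the NB mean of 0.718 ± 0.266 (n = 6). Fosl1, which codes for the AP-1 subunit FRA1, had 18.7, 23.6 and 22.2 CPM at 6h and 1.87, 1.22, 1.29 and 1.73 CPM at 3d (-3.45 ± 0.16, adjusted p = 2.21e-11). Jun, its partner in AP-1, had 318, 289 and 278 CPM at 6h and 41.0, 49.1, 46.6 and 47.7 CPM at 3d (-2.67 ± 0.10, adjusted p = 1.41e-12). For Jun the 3d mean was 46.1 ± 3.52 CPM beside 41.2 ± 5.40 in NB, while Fosl1, at 0.0268 ± 0.0361 CPM in NB, had reads in every 3d library.

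Further genes with the largest lower differences at 3d follow with their values. Klf11, a Kruppel-like repressor gene, had 55.2, 54.2 and 55.9 CPM at 6h and 9.86, 9.52, 9.44 and 10.5 CPM at 3d, with little spread within either group (-2.43 ± 0.13, adjusted p = 1.82e-10). The small Maf factor gene Maff had 10.1, 9.25 and 10.2 CPM at 6h and 1.46, 1.504, 1.001 and 1.52 CPM at 3d (-2.48 ± 0.24; -3.21 with the set term). Snhg12, a non-coding host gene of small nucleolar RNAs, had 75.6, 72.2 and 71.5 CPM at 6h and 15.4, 16.3, 19.4 and 16.2 CPM at 3d (-2.09 ± 0.08). The 3d mean of Snhg12 was 16.8 ± 1.75 CPM beside an NB mean of 19.4 ± 1.17 CPM. Zfp36, which codes for an mRNA decay factor, differed (28.1 to 6.41 CPM, log2 -2.04 ± 0.25), as did the death receptor gene Fas (7.27 to 1.42 CPM, log2 -2.05 ± 0.23). Icam1, an adhesion molecule that holds leukocytes, had 14.2, 14.8 and 13.7 CPM at 6h and 2.57, 2.08, 2.36 and 3.04 CPM at 3d (-2.30 ± 0.19). Also lower were the linker histone gene H1foo (8.83 to 1.18 CPM, log2 -2.47 ± 0.16) and the spindle protein gene Ckap2 (6.51 to 0.952 CPM, log2 -2.28 ± 0.21). Genes named without a role, 9330188P03Rik (33.6 to 6.34 CPM, log2 -2.32 ± 0.16), Gm5297 (12.1 to 2.31 CPM, log2 -2.15 ± 0.14) and Gm6012 (5.37 to 0.354 CPM, log2 -2.80 ± 0.22), were also lower, and Ccl2 is given with the chemokines. The plot of values by library shows these genes beside the late ones.

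**Figure D2:**
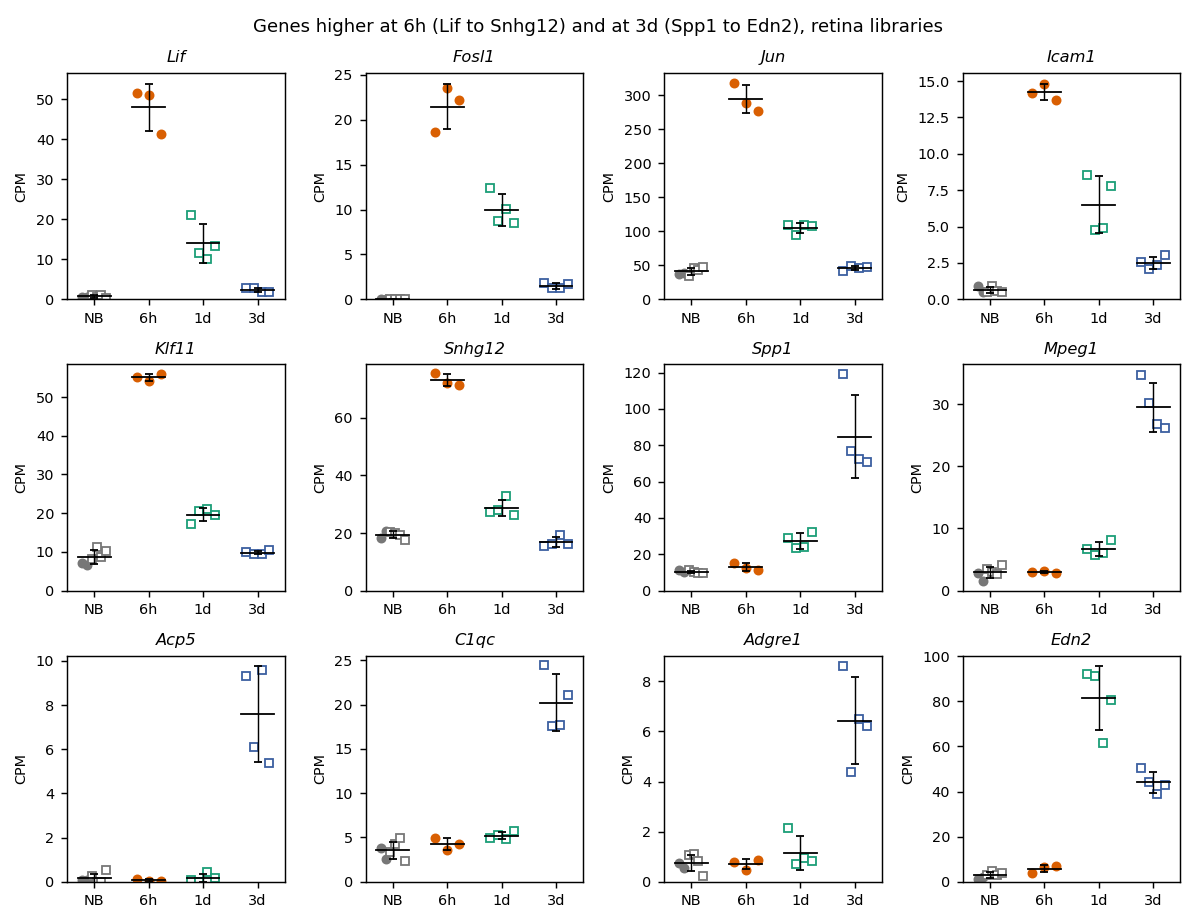
Each panel plots CPM (y) in every retina library by group (x), with the mean as a bar and SD as error bars; filled circles are libraries of the deeper set and open squares those of the shallower set. Lif, Fosl1, Jun, Icam1, Klf11 and Snhg12 are highest in the 3 6h libraries, and Spp1, Mpeg1, Acp5, C1qc and Adgre1 in the 4 3d libraries, while Edn2 peaks at 1d.

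Of 22 immediate early and AP-1 genes tested, 15 were lower and 0 higher at 3d, 14 of them lower in both fits. Against the background of 18.5% this is a share of 68.2%. The median log2 difference was -1.36, and -2.23 with the set term, so its size depended on that term. The NB libraries, on which the term rests, were spread for this list (summed 307 to 1148 CPM, beside 371 to 754 CPM at 3d). Atf3, a stress-induced bZIP factor gene, followed another course, with 24.9 CPM at 6h, 44.3 at 1d and 7.997 at 3d (3d minus 6h -1.60 ± 0.15, adjusted p = 1.47e-07). Ier3, a survival gene, lay at 3d below NB (93.7 CPM at 6h, 30.3 at 3d, 45.9 in NB, 3d minus 6h -1.61 ± 0.08).

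The gp130 and STAT3 list counted 12 lower and 0 higher of 17 tested (11 lower in both fits, median -0.52; 10 lower and 2 higher when scaled to library totals). Beside the ligand gene Lif, its receptor gene Lifr had 185, 180.2 and 162 CPM at 6h and 66.6, 72.0, 64.0 and 64.9 CPM at 3d (-1.39 ± 0.07, adjusted p = 1.25e-10). Osmr, the oncostatin M receptor gene, averaged 106 ± 3.61 and 44.7 ± 5.35 CPM (-1.25 ± 0.13). Lifr at 3d was below its NB mean of 87.4 ± 5.54 CPM, whereas Osmr was above its NB mean of 9.003 ± 1.56 CPM. The signal transducer gene Stat3 had 264, 328 and 335 CPM at 6h and 164, 152, 139 and 140.2 CPM at 3d (-1.04 ± 0.07, adjusted p = 3.04e-09), still above its NB mean of 68.0 ± 3.39. Cish, a feedback inhibitor of STAT signalling, averaged 28.5 ± 2.61 and 10.2 ± 1.01 CPM (-1.44 ± 0.10). Summed over the list, levels ranged from 1324 to 1392 CPM at 6h, 1434 to 1479 at 1d and 788 to 881 at 3d.

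NF-kappaB genes counted 13 lower and 0 higher of 18 (10 lower in both fits, median -0.58; 10 lower and 3 higher when scaled to library totals). The subunit genes Nfkb2 (15.9 to 6.07 CPM, log2 -1.33 ± 0.15), Relb (13.2 to 5.12 CPM, log2 -1.29 ± 0.16) and Rel (15.7 to 7.83 CPM, log2 -0.98 ± 0.13) were lower, with Nfkb2 and Relb above their NB means of 1.997 and 1.4002 CPM at both times. Tnfaip3, a deubiquitinase gene that limits the pathway, averaged 418 ± 31.1 CPM in NB and had 402, 393 and 374 CPM at 6h and 193, 218, 213 and 223 CPM at 3d (-0.88 ± 0.12). Of 12 chemokine and adhesion genes, 7 were lower and 2 higher (6 and 1 in both fits, median -0.66). The monocyte attractant gene Ccl2 had 3.45, 3.17 and 2.69 CPM at 6h and 0.416, 0.358, 0.286 and 0.276 CPM at 3d (-2.11 ± 0.26), and Ccl12 averaged 1.54 ± 0.120 and 0.141 ± 0.128 CPM. Cxcl16, a membrane-bound chemokine gene of phagocytes, was higher at 3d (11.6 to 23.5 CPM, log2 0.98 ± 0.13), and so was the fractalkine gene Cx3cl1 (93.1 to 111 CPM, log2 0.25 ± 0.07).

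Stretches of 100 bases from the 250 bases before the start of 3 genes lower at 3d show motifs for the pathways above. They are printed to show the letters that were searched (RefSeq, GRCm38.p6, plus strand, motif in capitals). The Lif stretch lies 250 to 151 bases before the start, and the Icam1 and Nfkb2 stretches 100 to 1. The Lif stretch (chr11:4257318-4257417) holds an AP-1 motif (TGANTCA), the Icam1 stretch (chr9:21015840-21015939) a STAT motif (TTCCNGGAA) and the Nfkb2 stretch (chr19:46304637-46304736) an NF-kappaB motif (GGGANTTCC) that matches on both strands, at 2 positions that overlap.
Lif: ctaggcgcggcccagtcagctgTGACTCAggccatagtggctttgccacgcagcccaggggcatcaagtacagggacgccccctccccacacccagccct
Icam1: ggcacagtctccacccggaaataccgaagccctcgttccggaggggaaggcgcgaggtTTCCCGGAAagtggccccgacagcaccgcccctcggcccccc
Nfkb2: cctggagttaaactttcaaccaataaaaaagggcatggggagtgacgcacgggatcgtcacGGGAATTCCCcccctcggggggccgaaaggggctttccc
Of the 15 genes named for the largest lower values, 9 had RefSeq promoters (11 in all), and on either strand of the 250 bases before the start 2 of these held the AP-1 motif (Lif and Fas), 1 the STAT motif (Icam1) and 0 the NF-kappaB motif. Nfkb2 is not among those 15. Over all 32851 RefSeq promoters the shares were 6.75%, 0.913% and 1.43%.

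Genes of microglia and other phagocytes were higher at 3d. Spp1, the osteopontin gene, had 15.2, 12.3 and 11.5 CPM at 6h and 119, 76.6, 72.4 and 70.9 CPM at 3d (2.64 ± 0.15, adjusted p = 2.66e-10; 2.75 with the set term). The 3d library 1 stood above the other 3 for Spp1, and all 4 lay above every 6h library, as the rule for naming required. Mpeg1, which codes for the macrophage pore-forming protein perforin-2, had 3.04, 3.17 and 2.79 CPM at 6h and 34.7, 30.2, 26.8 and 26.2 CPM at 3d (3.09 ± 0.20, adjusted p = 8.86e-10). Acp5, the tartrate-resistant acid phosphatase gene, had 3, 1 and 1 reads in the 6h libraries and 134, 85, 134 and 78 reads in the 3d libraries (adjusted p = 4.10e-09). That is 9.30, 6.09, 9.58 and 5.39 CPM at 3d, beside 0.174 ± 0.188 CPM at 1d (n = 4). In these bulk libraries more cells of a type and more RNA per cell cannot be told apart.

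Receptors and their adaptors stood beside these. Adgre1, which codes for the macrophage receptor F4/80, had 0.772, 0.480 and 0.884 CPM at 6h and 8.61, 4.37, 6.51 and 6.22 CPM at 3d (2.49 ± 0.29). Trem2, a lipid-sensing receptor gene of microglia, had 0.545, 0.608 and 0.530 CPM at 6h and 4.03, 3.72, 4.36 and 4.14 CPM at 3d (2.10 ± 0.18). Its adaptor gene Tyrobp averaged 1.58 ± 0.206 and 8.44 ± 0.667 CPM (2.11 ± 0.19). The Toll-like receptor homologue gene Cd180 (0.611 to 4.01 CPM, log2 2.02 ± 0.19) and the gene of its partner MD-1, Ly86 (1.0702 to 6.74 CPM, log2 2.21 ± 0.16), were higher together. Cd84, a leukocyte adhesion receptor gene, was higher as well (0.442 to 3.29 CPM, log2 2.000 ± 0.18). For each of these 6 genes the 3d libraries lay above every 6h library, which was a condition for naming them and so not a result. In either direction 44.9% of all genes tested showed such a separation.

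Of 19 homeostatic microglia genes, 16 were higher and 0 lower (12 higher in both fits, median 1.34), against 16.5% of all genes. The fractalkine receptor gene Cx3cr1 had 3.23, 2.98 and 3.71 CPM at 6h and 15.9, 13.5, 12.2 and 14.0 CPM at 3d (1.92 ± 0.16, adjusted p = 2.09e-08). At 3d it lay above its NB mean of 4.52 ± 0.792 CPM. Summed over the list, levels ranged from 62.7 to 83.6 CPM at 6h and from 202 to 230.4 CPM at 3d. Activated phagocyte genes counted 23 higher and 0 lower of 26 (17 higher in both fits, median 1.11). The cathepsin gene Ctss, an antigen-processing protease of these cells, had 9.54, 8.35 and 7.99 CPM at 6h and 21.2, 16.7, 16.2 and 18.3 CPM at 3d (1.02 ± 0.13).

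Markers of blood-borne cells were few in the table. Of the monocyte and infiltrating macrophage list 4 genes were tested and 1 was higher, Lyz2, the lysozyme gene it shares with microglia (2.87 to 15.5 CPM, log2 2.31 ± 0.36), which did not pass with the set term (adjusted p = 0.0561). Ccr2, Ly6c2 and Plac8 were not tested here. Csf3r, the granulocyte colony-stimulating factor receptor gene, was the 1 gene tested of 11 on the neutrophil list and was higher (0.753 to 3.01 CPM, log2 1.45 ± 0.23). S100a8, S100a9 and Ly6g were not tested here, so this gene alone does not show a rise of neutrophils. Lck was the T cell gene tested, at 1.49 ± 0.145 and 1.46 ± 0.373 CPM (adjusted p = 0.919). Haemoglobin genes were higher at 3d (4 of 4 tested, summed 9.25 to 12.4 CPM at 6h and 19.5 to 24.9 at 3d). Of these 0 passed in both fits, 1 without 6h library 2 and 2 without 6h library 3. The part of blood in the phagocyte result was not tested.

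Complement genes counted 9 higher and 1 lower of 18 (8 and 0 in both fits, median 0.92). C4a was lower (4.501 to 3.35 CPM, log2 -0.39 ± 0.13) and C4b higher (22.9 to 74.5 CPM, log2 1.74 ± 0.25); the pair are near-identical copies, so both are uncertain, and the C4a call was lost without 6h library 1 or 2 or 3d library 2 or 3. The genes of C1q, counted in the microglia list as well, were higher. C1q starts the classical pathway. C1qc had 4.91, 3.58 and 4.28 CPM at 6h and 24.4, 17.6, 17.7 and 21.1 CPM at 3d (2.12 ± 0.19), and C1qb 4.68, 3.97 and 4.63 and 22.8, 17.9, 19.3 and 21.8 CPM (2.09 ± 0.20). C1qa averaged 4.21 ± 0.353 and 18.0 ± 2.16 CPM (1.97 ± 0.16), and at 1d the chains were at 5.41 (C1qa), 7.32 (C1qb) and 5.20 (C1qc) CPM. Serping1, the C1 inhibitor gene, was higher (16.3 to 45.4 CPM, log2 1.47 ± 0.18) but had reached 51.9 ± 8.55 CPM by 1d.

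Class I antigen presentation genes were higher at 3d (16 higher and 0 lower of 20, 8 higher in both fits, median 0.84). Their sum ranged from 267 to 293 CPM at 6h, 516 to 800 at 1d and 434 to 560 at 3d. H2-D1, a class I heavy chain gene, had 40.3, 41.3 and 40.0 CPM at 6h and 101, 78.6, 80.4 and 95.9 CPM at 3d (1.12 ± 0.09), and H2-K1 24.5, 23.9 and 25.6 and 66.6, 49.4, 53.1 and 70.3 CPM (1.25 ± 0.15). Reads of class I genes may be shared between near-identical copies, which makes H2-Q7 (1.19 to 5.37 CPM, log2 1.79 ± 0.19) and H2-T23 (3.46 to 11.4 CPM, log2 1.54 ± 0.20) uncertain. In the interferon list 19 genes were higher and 4 lower of 38 (median 0.54), but 3 and 4 in both fits. The higher count was 10 without 6h library 2, 12 without 3d library 1 and 11 without 3d library 4. The interferon list summed to 449 to 497 CPM at 6h, 847 to 1313 at 1d and 466 to 772 at 3d. The 3d libraries were spread for such genes: Oasl2, of the oligoadenylate synthetase family, had 9.68, 9.38 and 10.3 CPM at 6h and 54.8, 30.01, 25.9 and 79.3 CPM at 3d (2.08 ± 0.29).

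Bst2, which codes for the antiviral protein tetherin, had 2.18, 1.60 and 2.33 CPM at 6h and 9.93, 8.02, 7.94 and 16.1 CPM at 3d (2.07 ± 0.30; adjusted p = 0.0241 with the set term). Libraries 1 and 4 were the highest at 3d for both Oasl2 and Bst2. The 4 lower members of the interferon list included the guanylate-binding protein genes Gbp2, with 23.7, 22.9 and 27.4 CPM at 6h and 10.1, 8.52, 6.51 and 10.1 CPM at 3d (-1.45 ± 0.22), and Gbp5 (7.80 to 3.04 CPM, log2 -1.24 ± 0.19). Gbp3, Gbp4, Gbp6 and Gbp7 did not pass. The interferon regulatory factor genes Irf1 (25.4 to 15.8 CPM, log2 -0.67 ± 0.12) and Irf2 (26.0 to 19.5 CPM, log2 -0.41 ± 0.08) were the other lower members. Of the class II genes, which professional antigen-presenting cells express, 2 of 6 were higher, Cd74 (1.67 to 3.4004 CPM, log2 0.86 ± 0.28) and H2-Aa (0.807 to 1.60 CPM, log2 0.71 ± 0.24). The count was 0 in both fits and 0 without 6h library 1, 6h library 2 or 3d library 3.

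Promoter stretches of 3 of the higher genes are shown for motifs of phagocyte and interferon control (RefSeq, GRCm38.p6, motif in capitals, each written in the direction of the gene). The C1qc stretch (chr4:136893056-136893155, minus strand) holds the PU.1 motif GAGGAAGT in reverse, the Spp1 stretch (chr5:104434952-104435051, plus strand) holds it forward, and the Bst2 stretch (chr8:71537548-71537647, minus strand) holds the interferon response motif (GAAA, any 2 bases, GAAA) at 2 overlapping positions, the first of which also overlaps a match to the STAT motif above.
C1qc: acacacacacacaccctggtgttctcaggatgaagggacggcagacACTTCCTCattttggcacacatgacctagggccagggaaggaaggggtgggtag
Spp1: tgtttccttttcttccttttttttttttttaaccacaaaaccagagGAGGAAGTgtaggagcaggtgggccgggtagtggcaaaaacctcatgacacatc
Bst2: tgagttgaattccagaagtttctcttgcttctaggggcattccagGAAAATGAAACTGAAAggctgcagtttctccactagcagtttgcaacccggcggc
Among the 15 genes named for the largest higher values 13 had RefSeq promoters (17 in all). The PU.1 motif was in 2 of these (C1qc and Spp1) and the interferon motif in 2 (Bst2 and Spp1), on either strand of 250 bases, beside 2.44% and 2.98% of all promoters. The AP-1 motif was in 2 (Cd84 and Trem2) and the STAT motif in 1 (Bst2), the same counts as among the lower genes, and the PU.1 and interferon motifs were in 0 and 0 promoters of the lower genes.

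Lysosome and uptake genes counted 15 higher and 5 lower of 29 (10 and 2 in both fits, median 0.22; 3 lower without 6h library 3; 18 higher and 1 lower when scaled to library totals). Ctsa, the protective protein cathepsin A gene, was higher (65.9 to 98.7 CPM, log2 0.58 ± 0.06). Lgmn, a protease gene of the same compartment, was lower (-0.52 ± 0.05). It had 229, 231 and 217 CPM at 6h and 162, 151, 159.6 and 158 CPM at 3d.

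Muller glia genes divided between resting and reactive lists. Of 20 resting Muller genes 12 were higher and 1 lower at 3d (6 and 1 in both fits, median 0.35). Gpr37, an orphan receptor gene, had 111, 112 and 102 CPM at 6h and 274, 253, 249 and 239 CPM at 3d (1.23 ± 0.06, adjusted p = 1.13e-10), on either side of its NB mean of 170.1 ± 11.3 CPM. The water channel gene Aqp4 had 129, 107 and 116 and 257, 214, 219.9 and 219.9 CPM (0.95 ± 0.07; NB 135 ± 7.44), and the glutamate transporter gene Slc1a3 259, 263 and 264 and 399.9, 361, 368 and 357 CPM (0.50 ± 0.06). Crym, which codes for a thyroid hormone-binding protein, had 77.6, 80.4 and 73.1 CPM at 6h and 277, 205, 206 and 197 CPM at 3d (1.502 ± 0.15), after 418 ± 43.8 CPM at 1d.

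The glial reactivity list counted 4 higher and 8 lower of 23 (3 and 7 in both fits, median -0.07). The higher count was 7 without 3d library 4 and 3 without 6h library 1. The higher share of 17.4% was near the 16.5% of all genes, and the lower share was 34.8% beside 18.5%. The list summed to 1704 to 2118 CPM at 6h, 3402 to 4677 at 1d and 1605 to 1997 at 3d. Of the lower genes Osmr, Cebpd, Socs3 and Stat3 are counted in the gp130 list as well. Edn2, a vasoactive peptide gene of injured retina, had 3.998, 6.46 and 6.999 CPM at 6h and 50.3, 44.4, 39.0 and 42.9 CPM at 3d (2.85 ± 0.28, adjusted p = 2.65e-07; 1.84 with the set term), and its mean at 1d was 81.4 ± 14.1. Nes, the nestin filament gene, had 27.6, 28.8 and 28.1 CPM at 6h and 13.9, 11.5, 13.1 and 11.7 CPM at 3d (-1.14 ± 0.12). The higher members were Edn2, Gfap, Serpina3n and A2m. Gfap, the glial filament gene, averaged 187 ± 48.1 and 271 ± 53.3 CPM (0.55 ± 0.15) and did not pass with the set term (adjusted p = 0.214). Serpine3, a serpin gene outside the lists, was among the genes with the largest differences, at 1.32, 0.544 and 0.354 CPM at 6h and 5.48, 5.37, 5.79 and 5.32 CPM at 3d (2.35 ± 0.30).

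**Figure D3:**
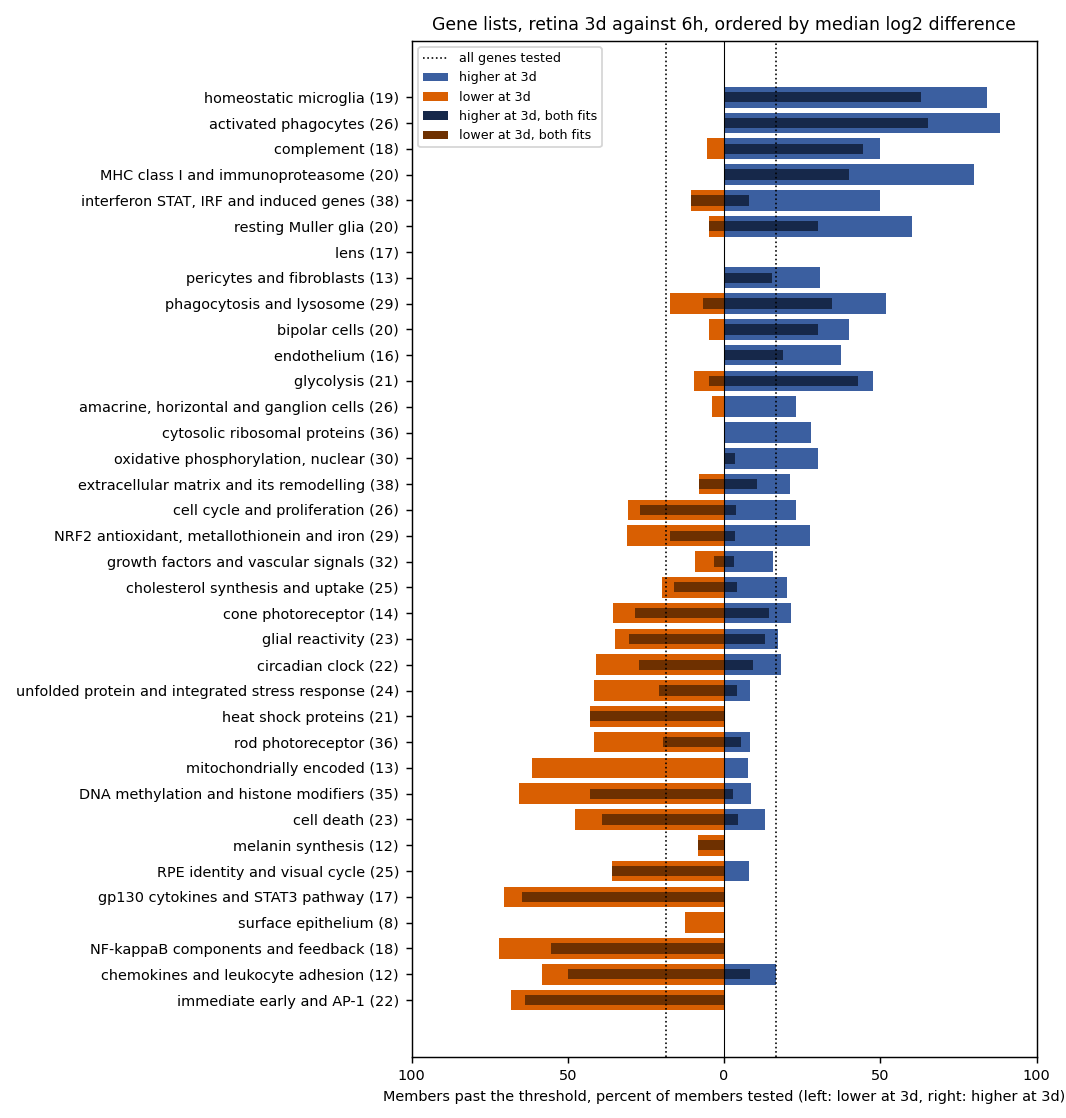
Bars give, for each gene list with at least 8 members tested (number in parentheses), the percent of members past the threshold as lower (left) or higher (right) at 3d than at 6h; narrow dark bars count those past in both fits and dotted lines mark all genes tested (18.5% lower, 16.5% higher). Microglia and phagocyte lists reach furthest to the right, and immediate early, NF-kappaB and gp130 lists furthest to the left.

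Rod genes were mostly lower or not past the threshold. Of 36 rod genes 15 were lower and 3 higher at 3d (7 and 2 in both fits, median -0.22; 14 and 6 when scaled to library totals). Summed over the list, levels ranged from 94923 to 105250 CPM in NB and from 31597 to 53349 CPM at 1d. The median log2 difference from NB was -0.60 at 6h and -0.81 at 3d, so the list lay below NB at 6h already. Grk1 and Crx, given next, were near NB at 6h. Grk1, the rhodopsin kinase gene, had 2948, 3203 and 3019 CPM at 6h and 1592, 1868, 1671 and 1666 CPM at 3d (-0.85 ± 0.12, adjusted p = 1.43e-05), and its 6h mean of 3057 ± 132 CPM lay beside an NB mean of 3131 ± 116. The photoreceptor fate gene Crx had 1265, 1322 and 1219 CPM at 6h and 742, 831, 814 and 810.0 CPM at 3d (-0.67 ± 0.09; NB 1276 ± 79.7). The ciliary axoneme gene Rp1l1 (959.5 to 586 CPM, log2 -0.71 ± 0.11) and Esrrb, an orphan nuclear receptor gene of rods (467 to 257 CPM, log2 -0.87 ± 0.14), were also lower. Nr2e3, the rod-fate receptor gene, was among the 3 higher rod genes (218 to 416 CPM, log2 0.92 ± 0.15), beside Rcvrn (406 to 594 CPM, log2 0.55 ± 0.11), the recoverin gene, and Impg2 (289 to 379 CPM, log2 0.40 ± 0.07), which codes for a matrix proteoglycan. Cone genes counted 5 lower and 3 higher of 14 (4 and 2 in both fits, median -0.06; 3 lower and 5 higher when scaled to library totals). The cone thyroid hormone receptor gene Thrb was lower (106 to 65.4 CPM, log2 -0.69 ± 0.06), while the transducin gene Gnb3 (445 to 650.0 CPM, log2 0.55 ± 0.06) and the phosphodiesterase gene Pde6h (67.9 to 113 CPM, log2 0.73 ± 0.10) were higher.

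Bipolar genes counted 8 higher and 1 lower of 20 (6 and 0 in both fits, median 0.20; 17 higher when scaled to library totals). The lower one, Prkca, did not pass without 6h library 1 or 2 or 3d library 3 or 4. Isl1, a LIM homeobox gene, had 75.9, 80.2 and 74.5 CPM at 6h and 122, 118, 119 and 108 CPM at 3d (0.60 ± 0.08). Pcp2, a marker of rod bipolar cells, averaged 126 ± 2.11 and 168 ± 5.59 CPM (0.42 ± 0.05). Amacrine, horizontal and ganglion cell genes counted 6 higher and 1 lower of 26 (median 0.12, 0 in both fits; 3 higher without 6h library 3 and 15 when scaled to library totals). The lower one, Isl2, lost the call in each fit without 1 library. Pax6, an amacrine and ganglion cell factor gene, was higher by 0.23 ± 0.05 (log2, adjusted p = 0.00140).

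Glycolysis genes that passed were mostly higher at 3d (10 higher and 2 lower of 21, 9 and 1 in both fits, median 0.18; 15 and 1 when scaled to library totals). Tpi1, the triosephosphate isomerase gene, had 448, 457 and 454 CPM at 6h and 767, 645, 716 and 705 CPM at 3d (0.64 ± 0.05, adjusted p = 3.56e-08), beside an NB mean of 650.0 ± 20.1. Slc16a3, a lactate exporter gene, had 15.9, 14.1 and 15.2 CPM at 6h and 28.5, 29.8, 35.7 and 34.7 CPM at 3d (1.065 ± 0.12), both below NB (56.9 ± 8.97 CPM). Eno1, the enolase gene (1570.2 to 2486 CPM, log2 0.66 ± 0.08), and Pfkl, a phosphofructokinase gene (259 to 359 CPM, log2 0.47 ± 0.06), were higher. The lower members were the hexokinase genes Hk1 (889 to 743 CPM, log2 -0.26 ± 0.08) and Hk2 (463 to 259 CPM, log2 -0.84 ± 0.12), and Hk2 was lower in both fits. Without 6h library 2 or 3, or 3d library 3 or 4, 1 of the pair passed. Nuclear genes of oxidative phosphorylation counted 9 higher and 0 lower of 30 with a median of 0.07, 1 in both fits. The higher count was 5 without 6h library 1 and 20 when scaled to library totals. Mitochondrially encoded genes counted 8 lower and 1 higher of 13 (median -0.27), with 0 in both fits and a median of 0.03 with the set term. The higher one, mt-Nd6, lost its call without 6h library 2 or 3 or 3d library 1, 2 or 3. The lower count was 5 without 6h library 1, 4 without 6h library 3 and 4 without 3d library 2, and 2 when scaled to library totals. Ribosomal protein genes counted 10 higher and 0 lower of 36 (0 in both fits; 24 higher when scaled to library totals). Leaving out 6h library 1 or 2 or 3d library 1, 3 or 4 gave 5, 3, 6, 5 and 4.

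Writers, readers and erasers of DNA methylation and histone marks were lower at 3d, 23 lower and 3 higher of 35 (15 and 1 in both fits, median -0.29). Scaled to library totals the counts were 17 lower and 5 higher. Tet3, a DNA demethylase gene, had 432, 457 and 423 CPM at 6h and 198, 237, 205 and 216 CPM at 3d (-1.03 ± 0.09, adjusted p = 9.04e-08), on either side of an NB mean of 331 ± 18.7 CPM. The acetyltransferase gene Crebbp had 124, 126 and 126 CPM at 6h and 80.9, 81.5, 73.8 and 75.6 CPM at 3d (-0.68 ± 0.07; NB 80.3 ± 5.001). Sirt1, a deacetylase gene (78.8 to 49.4 CPM, log2 -0.67 ± 0.07), and Kat6a, an acetyltransferase gene (262 to 159 CPM, log2 -0.72 ± 0.08), were also lower. The 3 higher members were the demethylase gene Tet1 (44.0 to 49.9 CPM, log2 0.18 ± 0.05), the methylation reader gene Uhrf1 (0.916 to 2.15 CPM, log2 0.92 ± 0.26) and the deacetylase gene Hdac11 (113 to 130.01 CPM, log2 0.20 ± 0.04), of which Tet1 passed in both fits.

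Clock genes differed in both directions, 4 higher and 9 lower of 22 (2 and 6 in both fits, median -0.15; 7 and 7 when scaled to library totals). The higher share of 18.2% was near that of all genes. Arntl, which codes for the activator BMAL1, had 192, 186 and 179.8 CPM at 6h and 90.4, 91.7, 89.7 and 88.7 CPM at 3d (-1.04 ± 0.06, adjusted p = 4.65e-10), and the repressor gene Cry1 86.7, 79.5 and 73.7 and 45.5, 48.0, 46.3 and 47.3 CPM (-0.76 ± 0.07). Among the higher genes, Dbp, which codes for a clock-controlled bZIP factor, had 99.6, 110.4 and 112 CPM at 6h and 178, 182, 183 and 179 CPM at 3d (0.75 ± 0.07), and Ciart 9.22, 14.1 and 13.9 and 23.9, 21.4, 27.5 and 27.7 CPM (1.01 ± 0.13). For these 4 genes the 1d means (90.0, 49.4, 182 and 21.6 CPM) lay nearer to 3d than to 6h. The clock time of collection is not in the labels, so time of day and time in the course cannot be told apart, here or for the other genes.

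**Figure D4:**
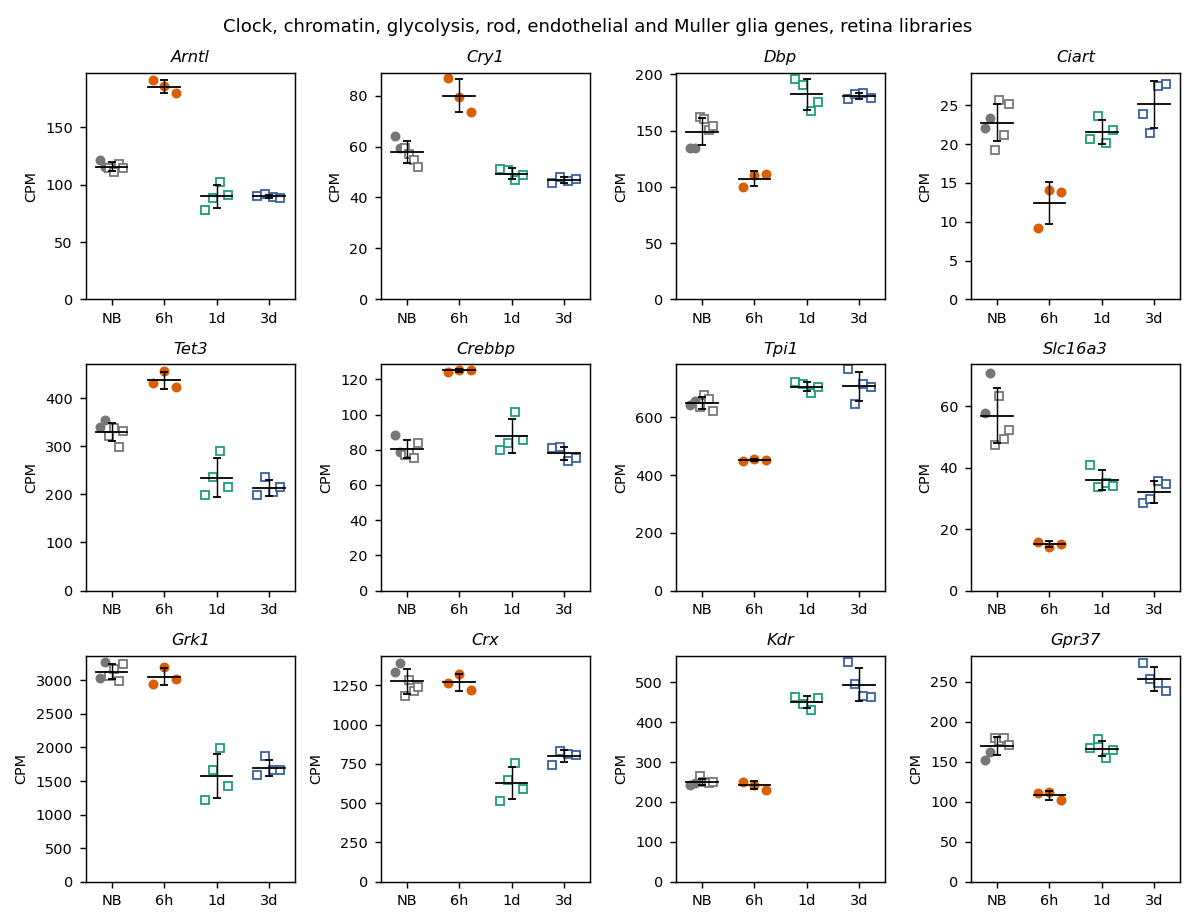
Each panel plots CPM (y) in every retina library by group (x) with the mean and SD; filled circles are the deeper and open squares the shallower set. Arntl, Cry1, Tet3 and Crebbp are highest and Dbp, Ciart, Tpi1, Slc16a3 and Gpr37 lowest at 6h, while Grk1, Crx and Kdr at 6h lie at the NB level and shift by 1d.

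Heat shock genes counted 9 lower and 0 higher at 3d of 21, 9 lower in both fits (median -0.19; 9 lower and 2 higher when scaled to library totals). The chaperone gene Hsp90aa1 had 1919, 1724 and 1594 CPM at 6h and 1109.7, 1055, 1077 and 1025 CPM at 3d (-0.71 ± 0.07), and the co-chaperone gene Bag3 19.4, 20.0 and 17.8 and 8.05, 6.59, 7.94 and 8.98 CPM (-1.23 ± 0.16). Unfolded protein and integrated stress genes counted 10 lower and 2 higher of 24 (5 and 1 in both fits, median -0.15; 6 and 3 when scaled to library totals). Atf4, the effector of the integrated stress response, had 446, 455 and 430.5 CPM at 6h and 200.04, 216, 229 and 234 CPM at 3d (-1.01 ± 0.08), and Ppp1r15a, which codes for its phosphatase feedback subunit GADD34, differed (57.1 to 23.3 CPM, log2 -1.28 ± 0.09). The higher members were Eif2ak2, the interferon-induced kinase PKR (6.13 to 14.9 CPM, log2 1.204 ± 0.22), and the chaperone gene Dnajb11 (54.0 to 62.1 CPM, log2 0.20 ± 0.07). Leaving out any of the 6h libraries or 3d library 1, 2 or 3 left 1 of the pair past the threshold.

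Antioxidant, metallothionein and iron genes went both ways (8 higher and 9 lower of 29, 1 and 5 in both fits; 10 and 8 when scaled to library totals). The higher count was 4 without 6h library 1 or 2 and 5 without 3d library 3. Hmox1, the heme oxygenase gene, had 23.7, 35.1 and 39.1 CPM at 6h and 10.6, 10.2, 9.51 and 8.50 CPM at 3d (-1.67 ± 0.20). The metallothionein gene Mt1 had 135, 148 and 176 and 69.6, 64.6, 67.8 and 71.4 CPM (-1.15 ± 0.14). Both lay above NB at 3d (3.52 ± 0.589 and 25.3 ± 3.69 CPM). Cell death genes counted 11 lower and 3 higher of 23 (9 and 1 in both fits, median -0.38). Gadd45a, a DNA damage response gene, had 49.98, 55.1 and 50.4 CPM at 6h and 17.0, 18.2, 18.7 and 15.7 CPM at 3d (-1.55 ± 0.08, adjusted p = 4.56e-11), and Tnfrsf12a, the receptor gene of TWEAK, differed (26.2 to 10.5 CPM, log2 -1.29 ± 0.15). The 3 higher members were Bak1 (10.01 to 12.2 CPM, log2 0.27 ± 0.09), Gsdmd (1.61 to 2.46 CPM, log2 0.49 ± 0.19) and Pycard (0.808 to 2.71 CPM, log2 1.301 ± 0.21), genes of mitochondrial death, pyroptosis and the inflammasome. Only 1 of these passed without 6h library 2 or 3.

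Cell cycle genes split, 6 higher and 8 lower of 26 (1 and 7 in both fits; 10 higher and 6 lower when scaled to library totals; 3 higher without 6h library 2). The cyclin gene Ccnb2 had 7.72, 5.15 and 5.55 CPM at 6h and 1.04, 1.003, 1.072 and 2.003 CPM at 3d (-1.91 ± 0.23), and the kinesin gene Kif11 5.82, 4.06 and 4.95 and 1.32, 1.36, 1.072 and 1.66 CPM (-1.55 ± 0.23). Mki67 (1.13 to 4.24 CPM, log2 1.72 ± 0.46), Top2a (0.725 to 3.60 CPM, log2 1.93 ± 0.40) and Cdk1 (0.525 to 1.71 CPM, log2 1.11 ± 0.28), markers of dividing cells singled out after their values were seen, were higher at 3d. None of these 3 passed with the set term (adjusted p = 0.555, 0.181 and 0.0579). Matrix genes counted 8 higher and 3 lower of 38 (4 and 3 in both fits), shares of 21.1% and 7.89% beside 16.5% and 18.5% of all genes. Adamts1, a secreted metalloprotease gene, had 169, 169 and 166 CPM at 6h and 68.7, 59.2, 57.1 and 60.4 CPM at 3d (-1.45 ± 0.09), while the membrane metalloprotease gene Mmp14 (18.0 to 32.1 CPM, log2 0.81 ± 0.12) and the inhibitor gene Timp2 (103 to 154 CPM, log2 0.58 ± 0.09) were higher.

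Growth factor and vascular genes counted 5 higher and 3 lower of 32 (1 and 1 in both fits; 5 lower without 3d library 3; 9 and 3 when scaled to library totals), shares of 15.6% and 9.38% that do not exceed those of all genes. Vegfa, the main angiogenic factor, was higher (156 to 201 CPM, log2 0.37 ± 0.07) and Tgfbr1, a TGF-beta receptor gene, lower (73.4 to 47.7 CPM, log2 -0.62 ± 0.06). Endothelial genes counted 6 higher and 0 lower of 16 (3 higher in both fits, median 0.19, 0.06 with the set term), and 10 did not pass. Their sum ranged from 474 to 509 CPM at 6h and from 731 to 827 at 3d, with Kdr alone making up much of the sum and of its difference. Kdr, a VEGF receptor gene, had 251, 243 and 231 CPM at 6h and 551, 496, 466 and 464 CPM at 3d (1.03 ± 0.06, adjusted p = 1.65e-10), and the junction gene Cldn5 7.13, 6.24 and 5.90 and 17.5, 16.3, 19.1 and 16.3 CPM (1.36 ± 0.15). Pericyte and fibroblast genes counted 4 higher and 0 lower of 13 (2 higher in both fits). Rgs5, a pericyte marker, was higher (65.2 to 101 CPM, log2 0.62 ± 0.07), and Pdgfrb lost its call when 6h library 1 or 2 or 3d library 2, 3 or 4 was left out. Cholesterol genes counted 5 higher and 5 lower of 25 (1 and 4 in both fits; 6 and 3 when scaled to library totals). Both shares, 20%, were near the 16.5% and 18.5% of all genes. Of the sterol exporter genes Abca1 was higher (49.4 to 71.1 CPM, log2 0.52 ± 0.11) and Abcg1 lower (161 to 94.0 CPM, log2 -0.78 ± 0.07).

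Genes of tissue next to the retina varied between libraries. Of 25 genes of the retinal pigment epithelium (RPE) tested 9 were lower and 2 higher at 3d (9 and 0 in both fits, median -0.45). The higher ones, Rlbp1 and Otx2, are also in the Muller and bipolar lists, and 1 of them passed without 6h library 2 or 3 or 3d library 4. The sum of the list ranged from 2071 to 2552 CPM at 6h and from 1902 to 2284 at 3d. Lrat, of the visual cycle, had 44.9, 40.4 and 59.8 CPM at 6h and 17.3, 24.9, 21.9 and 23.5 CPM at 3d (-1.12 ± 0.19). The keratin gene Krt18 had 103, 79.9 and 81.1 and 42.1, 47.4, 48.1 and 48.1 CPM (-0.91 ± 0.08). The cadherin gene Cdh3 was lower as well (14.95 to 3.87 CPM, log2 -1.84 ± 0.21). Melanin genes counted 1 lower of 12 (Oca2) and 7 without 6h library 2; the list summed to 122 to 477 CPM at 6h and 97.0 to 256 at 3d. Lens genes summed to 356 to 14527 CPM at 6h and 593 to 16042 CPM at 3d, and 0 of 17 passed in either direction. Surface epithelium genes summed to 16.4 to 33.9 and 10.8 to 21.8 CPM, with the corneal keratin gene Krt12 lower (3.44 to 0.903 CPM, log2 -1.39 ± 0.49), a call lost without 6h library 1 or 2 or 3d library 3 or 4. The part of these tissues in the other results was not tested.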

How the data were processed

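RNA was measured in retina from Abca4-/- Rdh8-/- mice (NB n = 6, 6h n = 3, 1d n = 4, 3d n = 4). The submitters' processing notes name STAR, Trimmomatic, edgeR and GRCm38, without versions; the read counter is not given in the sources used here. The deposited signal holds CPM, per the file headers, divided by library totals that the authors had rescaled (from the values), and the table starts from genes kept by a filter whose rule is not stated. Every value was a whole multiple of its library's value for 1 read within 0.01 (100% of values), and reads were recovered by that step. Main tests used limma 3.58.1 (R 4.3.3) on log2(CPM + 0.5) over all 4 retina groups, with a variance trend. The p-values were adjusted by Benjamini-Hochberg over 16926 genes, with a threshold of 0.05. The fit was run again with the set as a term. The added 0.5 shrinks differences of low genes. Sets follow the form of the column headers and separate the depths, and what the form stands for is not stated. NB headers fit their group only, so A and B numbers were assigned here. Symbols were matched by Ensembl identifier (6 unmatched); Aldoa, under more than 1 identifier, was left out of its list.

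Alternatives were other pseudocounts (0.1 and 2), filters and scalings, edgeR 4.0.16 and DESeq2 1.42.0 on recovered reads, array weights, other fits, a replicate block, a 1.5-fold minimum and leaving out libraries. Scripts were tested on simulated data. Genes named were the 15 with the largest difference in each direction that passed in the same direction in both fits, with groups that do not overlap, a symbol and at least 2 CPM in the higher group; up to 4 members of each of 41 lists by adjusted p; and Abca4 and Rdh8. Members of small counts and Serpina3n, A2m, Gfap, Irf1, Irf2, Nr2e3, Rcvrn, Impg2 and Cx3cl1 were named after their values were seen. The comparison, lists and rule were chosen with earlier results of these data known, and lists were not tested as sets. Some named genes are not reported here.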

Additional observations from a re-analysis of the deposited data

Results flagged for a closer look

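In 14 of 169 named genes 1 of the 4 libraries at 3d stood apart from the other 3, by a gap past Dixon's 95% critical value; chance flags about 1 in 20 groups. Library 1 was the one apart in 7 of them, genes of phagocytes, glia, stress and epithelium among them. Spp1 was at 119 CPM in 3d library 1, above the other 3 at 70.9 to 76.6. Lyz2 was at 19.4 CPM in 3d library 1, above the other 3 at 13.7 to 14.4, and Tyrobp was at 9.44 CPM in 3d library 1, above the other 3 at 8.08 to 8.15. Crym was at 277 CPM in 3d library 1, above the other 3 at 197 to 206. Aqp4 was at 257 CPM in 3d library 1, above the other 3 at 214 to 219.9. Atf3 was at 10.4 CPM in 3d library 1, above the other 3 at 6.84 to 7.45. Krt18 was at 42.1 CPM in 3d library 1, below the other 3 at 47.4 to 48.1. Abcg1 was at 102 CPM in 3d library 2, above the other 3 at 90.7 to 92.1. Rp1l1 was at 614 CPM in 3d library 2, above the other 3 at 572 to 579, and Gm5297 was at 2.36 CPM in 3d library 2, above the other 3 at 2.28 to 2.29. Library 3 was apart for 3 genes. Maff was at 1.001 CPM in 3d library 3, below the other 3 at 1.46 to 1.52. Krt5 was at 1.57 CPM in 3d library 3, above the other 3 at 0.967 to 1.003. mt-Nd5 was at 2483 CPM in 3d library 3, above the other 3 at 2434 to 2438. Ccnb2 was at 2.003 CPM in 3d library 4, above the other 3 at 1.003 to 1.072. No explanation was tested for these gaps.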

How the results depend on the processing

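Depth and set go with the groups, so the set term rests on the NB libraries alone. Genes at a few reads rest on the added 0.5. The 5925 calls became 2400 with the set term (810 higher, 1590 lower), and in fits chosen after seeing the data 1467 without NB A1 and 1351 without NB A2 (edgeR with the set term 2648). A test against a 1.5-fold minimum called 320 (93 higher, 227 lower, 257 at least 2-fold). Scaled to library totals 5230 were higher and 2059 lower. The 2-fold count of 428 became 231 with 2 added, 276 above a filter of 5 CPM, and 661 by both edgeR (6254 calls) and DESeq2 (6365 calls). Leaving out 1 library at a time gave 4641 to 5496 calls, 2051 to 2519 higher, 2590 to 3009 lower and 417 to 455 at least 2-fold. The other pseudocount, no filter, rescaling, array weights and the 6h and 3d libraries alone gave 5878, 5925, 5925, 7478 and 6613 calls.

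Of 151 named genes called, 123 also passed in the same direction with the set term. The sign turned for mt-Atp6 (0.076 with the set term, 0.098 without NB A1, 0.054 without NB A2, 0.074 by edgeR with it), Cd74 (-0.23 without NB A1, -0.067 by edgeR with the set term) and Tfap2a (-0.027 without NB A1); the cause was not tested. With 1 library left out Cd74, H2-Aa, Hba-a1, Hba-a2, Hbb-bs, Hbb-bt, Krt12, Onecut2, Pdgfrb and Rpl23 lost the call in at least 1 fit. Libraries that share a number across the groups did not all deviate together (correlations of -0.45, 0.24 and 0.35 over 16926 genes) and come from separate mice. A fit with replicate number as a block gave 6519 calls.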
